A study of Mus musculus with 6 samples.

Results

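The TGF-beta and BMP signalling genes of the mouse aorta were taken as all rows of the deposited tables whose symbol begins with Tgfb1 to Tgfb3, Tgfbr1 to Tgfbr3, Bmp or Gdf with a digit, Bmpr, Ltbp with a digit, Inhba, Inhbb, Inhbc, Inhbe or Acvr. The rule found 47 genes among 36557 rows, each with 1 row. Aortic arch and thoracic aorta had been collected after 4 weeks on a high-fat diet (HFD), and their RNA was sequenced. The control group held 3 libraries of genotype Apoe-/- and the knockout group held 3 libraries of genotype Apoe-/- MiR26b-/-, so animals of both groups lacked apolipoprotein E, which leaves them prone to plaque. The question was how loss of the microRNA gene Mir26b alters expression in the atherosclerotic vessel. Whether each library is 1 animal or a pool is not stated in the labels, so the p-values reflect variation among libraries, which may be technical. The labels name no cell type to which the deletion was limited.

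Ligands of this superfamily are secreted dimers that bring together type I and type II serine/threonine kinase receptors. The type I receptor then phosphorylates SMAD proteins: TGF-beta and activin type receptors mainly act on SMAD2 and SMAD3, and BMP type receptors on SMAD1, SMAD5 and SMAD9. TGF-beta is secreted in a latent form that latent TGF-beta binding proteins (LTBPs) tie to the matrix. In the aortic wall these signals bear on smooth muscle differentiation, matrix deposition and endothelial quiescence.

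Levels are given as CPM (counts scaled to a common library total), from deposited estimated counts with TMM factors, where a difference between groups is meant, and in deposited TPM, a per-length scale, where genes are compared with each other. Group values are mean ± SD with n = 3. A gene was called where edgeR's quasi-likelihood test over 17392 tested genes gave a Benjamini-Hochberg adjusted p under 0.05. Totals were between 51634139 and 54817547 deposited estimated counts per library. The deposited counts step by 0.900 to 1.07 in a library, so they carry a scaling factor, and totals divided by the step were between 48794804 and 57823852. Knockout replicate 3 stood apart from the other knockouts: its first principal component score (the component held 61.9% of variance) was 0.97, whereas controls scored -45.35 to -25.42 and the other knockouts 47.05 and 55.72. The 7 smooth muscle markers used to check the tissue (Acta2, Myh11, Cnn1, Tagln, Smtn, Lmod1 and Myocd) were present in every library, with a summed TPM between 17382 and 29190.

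The deleted microRNA and its relatives are shown first, because a site for them is a feature that the choice of genes did not use. The seed, bases 2 to 8, is in capitals, sequences are from RefSeq (GRCm38.p6), and Mir26b lies on chromosome 1 from 74394310 to 74394394. The tables held 0 rows for microRNA genes, so the deletion was not checked in these data.
mmu-miR-26b-5p: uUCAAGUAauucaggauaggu
mmu-miR-26a-5p: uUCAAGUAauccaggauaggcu
Both carry the same seed, and miR-26a-5p is made from Mir26a-1 and Mir26a-2, which lie on chromosomes 9 and 10 and are not named in the knockout genotype.

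Sites were searched on the transcript strand of the longest annotated 3′ UTR (GENCODE mouse release M21, GRCm38), as the 8-base site TACTTGAA or either 7-base part of it, TACTTGA or ACTTGAA, with an 8-base site counted once. Of the 47 genes 14 held at least 1 site (29.8%), against 3367 of 16142 tested genes with a 3′ UTR (20.9%), and 5 held the 8-base site (10.6% against 4.8%). Median 3′ UTR length was 1554 bases for the 47 genes and 1192 bases for all tested genes; the part of length in the difference was not tested. The 8-base sites of 4 genes and the single sites of Ltbp1 and Bmpr1b, the called genes that have one, are printed 5′ to 3′ with the site in capitals.
Bmpr2, chr1:59876018-59876047, plus strand: aatttaaaaagaaaattgactgTACTTGAA
Acvr1c, chr2:58274582-58274611, minus strand: aaaaaatattaaatttttgttgTACTTGAA
Inhba, chr13:16028122-16028151, plus strand: ttttattttcttcaaggagagaTACTTGAA
Inhbb, chr1:119415983-119416012, minus strand: gtacgactcttttatatttttaTACTTGAA
Ltbp1, chr17:75390598-75390627, plus strand: gtaaagggaaagggagagatgtaTACTTGA
Bmpr1b, chr3:141837484-141837513, minus strand: caatgagaatacattttttttaaACTTGAA
The 14 genes with a site had a median log2 difference (knockout minus control) of -0.02, with 7 above 0 and 7 below. The 31 tested genes of the family without a site had a median of -0.13, with 11 above 0 and 20 below. Over all tested genes with a 3′ UTR the medians were -0.03 with a site and 0.00 without. The 5 genes with the 8-base site had differences of -0.06 (Bmpr2), -0.89 (Acvr1c), 0.09 (Inhba), 0.38 (Inhbb) and 0.80 (Ltbp2), and none of these was called by edgeR; 2 of the 5, Ltbp2 and Inhbb, had an unadjusted p under 0.05, where 30.7% of all tested genes did, and DESeq2 called Ltbp2. A match of letters is a description and does not show binding.

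In the knockout aortas a BMP receptor gene, a matrix-binding gene and an adaptor gene fell, and a cytokine gene and an endothelial receptor gene rose. Bmpr1b, a BMP type I receptor, was 1.75-fold lower, Ltbp1 1.31-fold lower and Tgfb1i1, which encodes the LIM-domain adaptor Hic-5 and is not a ligand, 1.31-fold lower. Gdf15, a stress-induced cytokine of the family, was 2.53-fold higher and Acvrl1, the endothelial type I receptor ALK1, 1.26-fold higher. Of 45 tested genes 2 were therefore higher (4.44%), where 6.50% of all tested genes were, and 3 were lower (6.67%), where 3.84% were. The groups did not overlap in CPM for 17 of the 45 (37.8%), near the 36.1% of all tested genes. The median log2 difference was -0.13 (18 above 0, 27 below), against -0.003 over all tested genes. Of the 45, 18 had an unadjusted p under 0.05 (40%, against 30.7%). For 21 (46.7%) the 95% interval of the difference lay within 1.5-fold either way, against 56.4% of all tested genes.

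DESeq2 called 7 genes higher (16.7% of the 42 to which it gave an adjusted p, against 12.4% of all genes) and 5 lower (11.9%, against 7.83%), the 5 edgeR calls among them. The 5 calls were lost when any library other than knockout replicate 3 was left out. EdgeR adjusted p were between 0.0768 and 0.166 in those fits, and all differences kept their direction. The loss was shared with the whole table: those fits called 0 to 52 of all tested genes higher and 0 to 22 lower. With all libraries 1131 were higher and 667 lower. Without knockout replicate 3, 10 of the 45 genes were higher (22.2%, against 17.2% of all tested genes) and 11 lower (24.4%, against 11.4%).

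**Figure D1:**
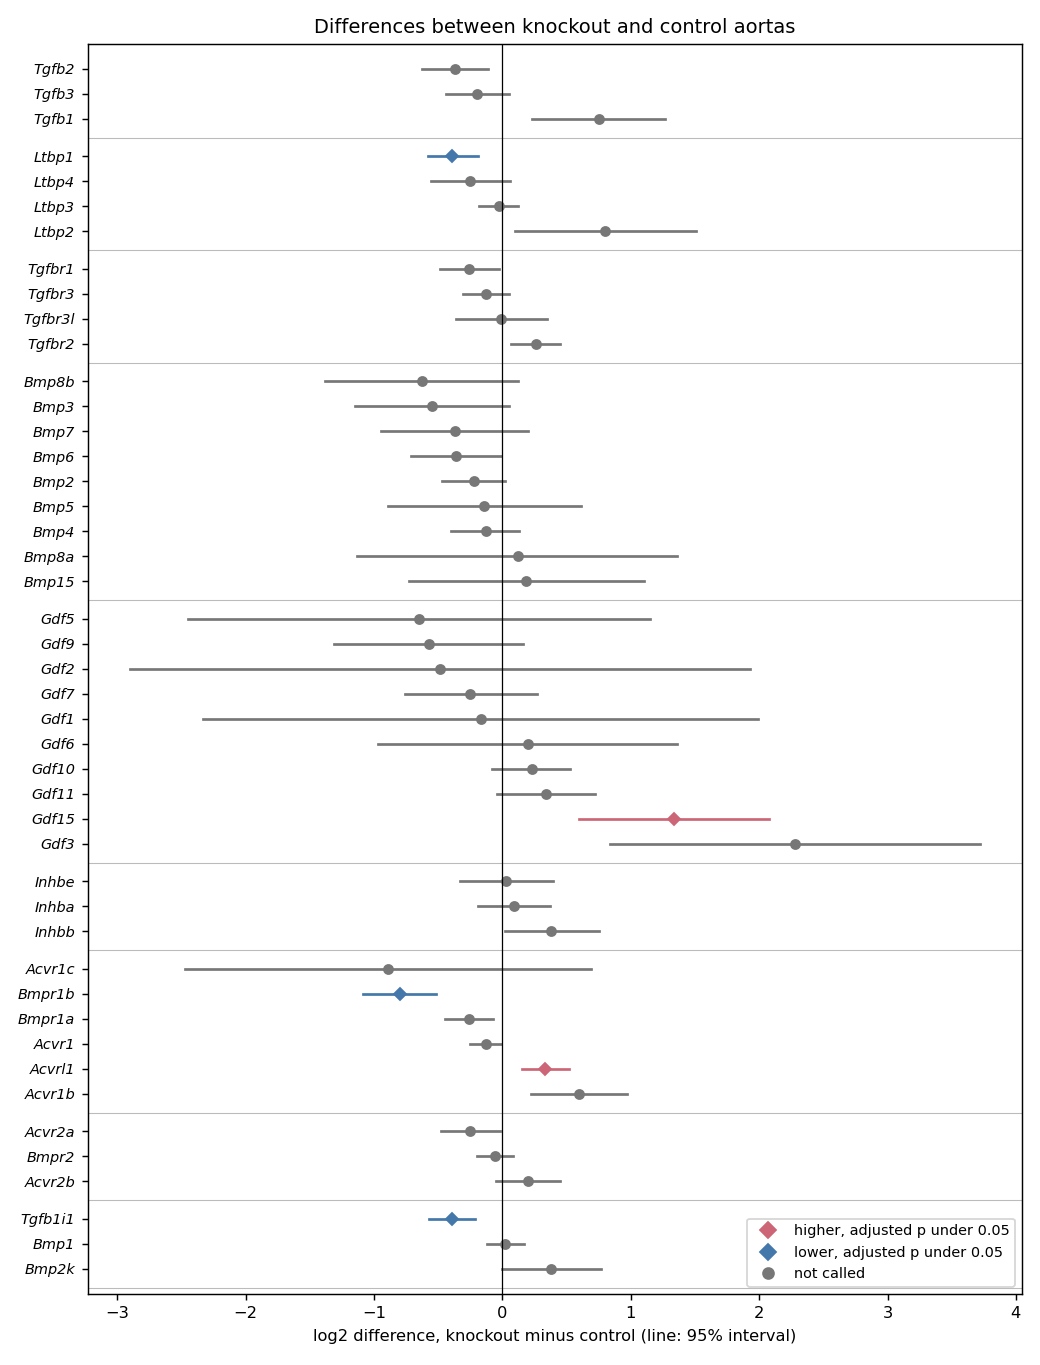
Log2 difference between knockout and control for the 45 tested genes, ordered by role and, within a role, by difference; lines are 95% intervals from edgeR's quasi-likelihood fit. Diamonds mark the 5 called genes, and the intervals are widest for Gdf2, Gdf1, Gdf5 and Acvr1c.

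On the per-length scale the matrix-binding proteins led the family. Ltbp4 stood first with a mean TPM over the 6 libraries of 456, followed by Ltbp3 at 294 and Ltbp1 at 271. Among secreted signals Bmp4 (82.0), Tgfb3 (70.5), Gdf10 (45.7), Tgfb1 (43.5) and Bmp6 (41) were highest, followed by Inhba (32.2). Among type I receptors the order was Bmpr1a (84.4), Acvrl1 (74.3), Tgfbr1 (40.4), Acvr1 (24.5), Acvr1b (16.1), Bmpr1b (7.63) and Acvr1c (1.23), and among type II receptors Tgfbr2 (67.4), Bmpr2 (17.3), Acvr2a (6.83) and Acvr2b (3.11). Ltbp3 and Ltbp1 overlapped in TPM in the controls (282 to 292 against 286 to 316) and did not overlap in the knockouts (286 to 328 against 227 to 253). Tgfb1 and Tgfb2 stood close in the controls, at 29.1 to 33.6 and 26.3 to 29.3 TPM, and apart in the knockouts, at 37 to 70.0 and 19.6 to 23.9 TPM.

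**Figure D2:**
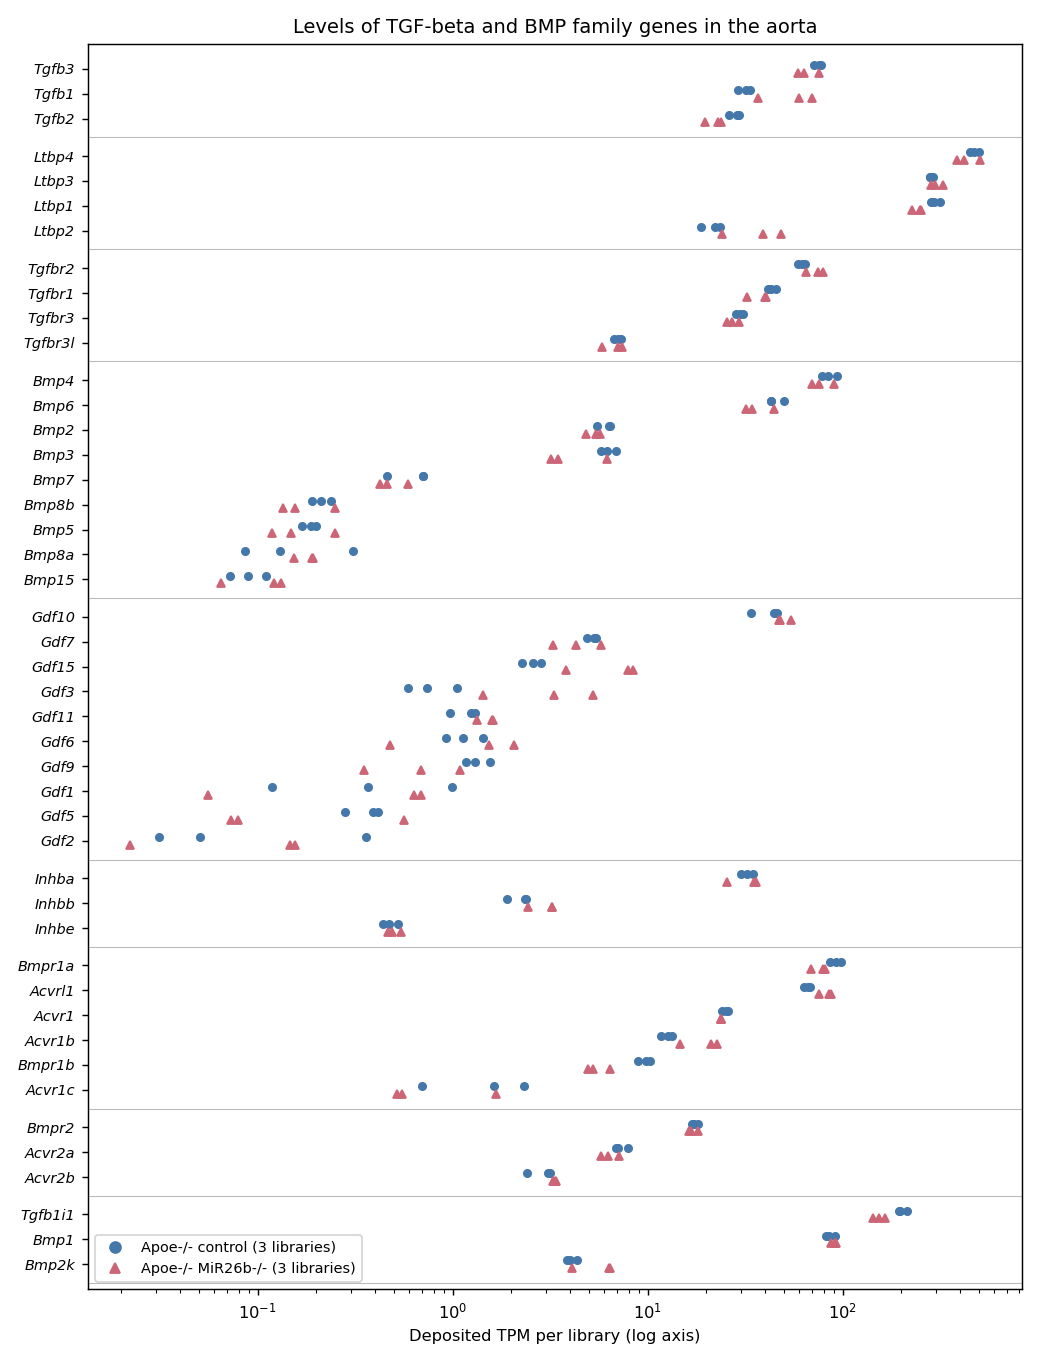
Deposited TPM of each library on a log axis for the 45 tested genes, grouped by role and ordered by mean TPM; circles are the 3 control and triangles the 3 knockout libraries. The 3 leading LTBP genes stand at 227 TPM or more in every library. Bmp5, Bmp7, Bmp8a, Bmp8b, Bmp15, Gdf1, Gdf2, Gdf5 and Inhbe stay below 1 TPM in all.

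The 3 TGF-beta ligands did not move together. Tgfb1 (chromosome 7, 25687002 to 25705077), the isoform made by immune and vascular cells alike, stood at 36.7, 38.6 and 41.3 CPM in the controls and 71.6, 81.5 and 43.4 CPM in the knockouts. All 3 knockouts were above all controls, but knockout replicate 3 by a small margin. The log2 difference was 0.75 (SE 0.22, 95% interval 0.23 to 1.27), and edgeR's adjusted p of 0.0723 missed the threshold. DESeq2 called it with an adjusted p of 0.00510, as did edgeR without knockout replicate 3 (log2 difference 0.97, adjusted p of 0.000622).

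Tgfb2 (chromosome 1, 186622792 to 186705989) stood at 73.8, 78.2 and 67.3 CPM in the controls and 56.8, 64.1 and 49.0 CPM in the knockouts. The groups did not overlap, and knockout replicate 3 was here the lowest library. The log2 difference was -0.37 (SE 0.11) with an edgeR adjusted p of 0.0734, and DESeq2 called it (adjusted p of 0.0164). Tgfb3 was the isoform of highest mean TPM over all libraries. In knockout replicates 1 and 2, however, Tgfb1 was above it (59.6 against 59.3 and 70.0 against 63.8 TPM). Tgfb3 stood at 160, 166 and 152 CPM in the controls and at 139 ± 19.0 CPM in the knockouts (log2 difference -0.20, SE 0.10, edgeR adjusted p of 0.246). Knockout replicate 3 (160) lay inside the control range and the other 2 below it, the higher of them at 134.

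Set against the sum of the 3 isoforms in TPM, the share of Tgfb1 was 23.5% ± 2.01 in controls and 38.1% ± 8.90 in knockouts, and that of Tgfb2 20.9% ± 0.932 and 15.4% ± 0.705. For both the groups did not overlap, and the exact two-sided permutation test gave p = 0.1, the smallest that 3 against 3 libraries allow. The share of Tgfb3 was 55.6% ± 1.17 and 46.5% ± 9.34 (exact permutation p = 0.400). Over the 18 shares tested in 4 families the adjusted p was 0.164 for the first 2 and 0.450 for Tgfb3. The summed TPM of the 3 isoforms was 131 to 138 in controls and 132 to 158 in knockouts, so the totals overlapped.

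Among the binding proteins Ltbp1 fell. Ltbp1 (ENSMUSG00000001870, chromosome 17, 75005568 to 75392512), which tethers latent TGF-beta to fibrillin microfibrils, stood at 895, 880 and 983 CPM in the controls and 731, 648 and 732 CPM in the knockouts, with no overlap. The log2 difference was -0.39 (SE 0.08) with an edgeR adjusted p of 0.0378. On the TPM scale it was -0.30, and limma on log2(TPM + 1) gave an adjusted p of 0.0579.

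Ltbp2, which binds microfibrils but not latent TGF-beta, differed within the knockout group. It stood at 91.4, 90.4 and 73.8 CPM in the controls and 161, 201 and 84.8 CPM in the knockouts, so knockout replicate 3 lay inside the control range. Its log2 difference was 0.80 (SE 0.29) with an edgeR adjusted p of 0.123. Without knockout replicate 3 it was 1.08, with an adjusted p of 0.00204, and with all libraries DESeq2 gave 0.0205.

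Ltbp4, the most abundant, stood at 1494 ± 98.5 CPM in controls and 1252 ± 210 in knockouts (edgeR adjusted p of 0.239), and knockout replicate 3 (1482 CPM) lay in the control range of 1408 to 1601. Ltbp3 had a log2 difference of -0.03 with a 95% interval of -0.18 to 0.12, at 541 ± 4.97 and 529 ± 28.0 CPM, and its sign is not settled, since with library size alone as the scaling it was 0.01.

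Of the TGF-beta receptors none was called by edgeR, although DESeq2 called Tgfbr2; 2 of the 4 had an unadjusted p under 0.05, where 30.7% of all tested genes did. Tgfbr2, the type II receptor that binds the ligand first, stood at 208, 220 and 224 CPM in the controls and 280, 268 and 234 CPM in the knockouts. Tgfbr1, the type I receptor ALK5, stood at 155, 148 and 165 CPM in the controls and 140, 139 and 113 CPM in the knockouts. The groups overlapped for neither gene, and the sides were opposite: the log2 difference was 0.26 (SE 0.08, edgeR adjusted p of 0.0835) for Tgfbr2 and -0.26 (SE 0.10, adjusted p of 0.128) for Tgfbr1. Tgfbr3, the co-receptor betaglycan, was at 115 ± 5.74 and 105 ± 8.89 CPM (adjusted p of 0.308). Tgfbr3l was at 3.75 ± 0.199 and 3.74 ± 0.568 CPM, and its exons overlap those of another protein-coding annotation, so its reads may be shared.

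**Figure D3:**
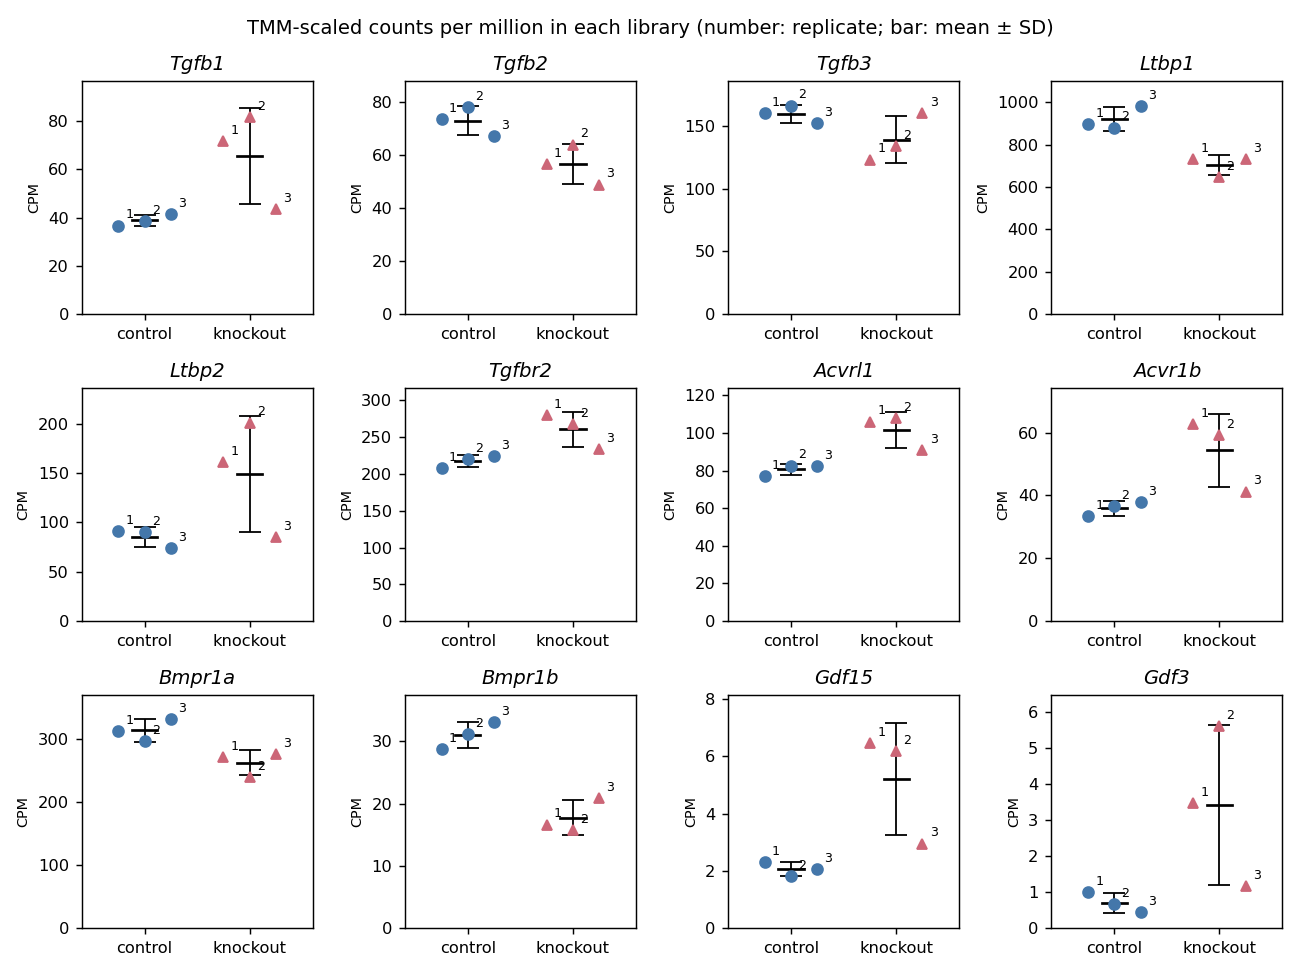
TMM-scaled CPM in every library for 12 of the genes; points are libraries numbered by replicate, horizontal bars are means and whiskers SD, n = 3. Knockout replicate 3 lies close to or inside the control range for Tgfb1, Tgfb3, Ltbp2, Acvr1b and Gdf3, and stands with the other knockouts for Ltbp1 and Bmpr1a.

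The type I receptors other than ALK5 held a call in each direction. Bmpr1b (ENSMUSG00000052430, chromosome 3, 141837136 to 142169425), the receptor ALK6, stood at 28.8, 31.2 and 33.1 CPM in the controls and 16.6, 15.7 and 20.9 CPM in the knockouts. The lowest control was above the highest knockout by a wide margin. The log2 difference was -0.80 (SE 0.12) with an edgeR adjusted p of 0.0245, the lowest in the family, and leaving out a library moved it between -0.94 and -0.72.

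Acvrl1 (ENSMUSG00000000530, chromosome 15, 101128522 to 101145336), the receptor for BMP9 and BMP10 on endothelium, stood at 77.0, 82.6 and 82.2 CPM in the controls and 106, 108 and 90.8 CPM in the knockouts. The log2 difference was 0.33 (SE 0.08) with an edgeR adjusted p of 0.0457, close to the threshold, and limma-voom gave 0.0578. Endothelial markers had a summed TPM of 695 to 848 in controls and 815 to 934 in knockouts. Of the 7, 2 were called higher, Cldn5 and Cdh5 (log2 differences 1.04 and 0.32). Not called were Kdr and Vwf (0.30 and 0.19), and Erg, Tek and Pecam1, which lay below 0 (-0.28, -0.19 and -0.07). The part of these markers in the value of Acvrl1 was not tested. In bulk tissue, more cells of a type and more RNA per cell cannot be told apart.

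Acvr1b, the activin receptor ALK4, is the neighbour of Acvrl1, 28.7 kb away on the same strand. It stood at 33.3, 36.6 and 37.9 CPM in the controls and 62.7, 59.1 and 41.2 CPM in the knockouts, without overlap. Its log2 difference of 0.60 (SE 0.16) had an edgeR adjusted p of 0.0581. It was called by DESeq2 (0.00409), with library size alone as the scaling (0.0479) and without knockout replicate 3 (log2 difference 0.76, adjusted p of 0.000901).

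Bmpr1a, the receptor ALK3, had the highest mean TPM of the type I receptors over all libraries. In the knockouts its mean was below that of Acvrl1 (76.5 against 82.7 TPM), though not in replicate 3 (79.8 against 75.8). In CPM, Bmpr1a stood at 313, 297 and 333 in the controls and 272, 240 and 277 in the knockouts (log2 difference -0.26, SE 0.08, edgeR adjusted p of 0.0808). DESeq2 gave 0.0274. Acvr1, the receptor ALK2, was at 43.5 ± 1.51 and 39.7 ± 1.05 CPM, also without overlap (log2 difference -0.13, SE 0.05, edgeR adjusted p of 0.131). In all, the groups did not overlap for 5 of these 6 genes, where 36.1% of all tested genes did not; 6 genes are too few to read this as particular to type I receptors.

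The exception was Acvr1c, the receptor ALK7, which is known from adipose tissue. It stood at 14.1, 9.96 and 3.89 CPM in the controls and 2.16, 3.27 and 9.69 CPM in the knockouts, so the spread within each group was wide (log2 difference -0.89, 95% interval -2.47 to 0.69). White adipocyte markers had a summed TPM of 3521, 2939 and 1566 in the controls and 996, 1500 and 3094 in the knockouts, and brown fat markers 2118, 1154 and 530, and 246, 392 and 1495. None of the 6 markers in either list was at 0 in all libraries and none was called by edgeR in either direction. Acvr1c thus differed between libraries in nearly the order of the fat markers, and their part in its level was not tested.

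Among the type II receptors none was called by edgeR or DESeq2 with all libraries. Of the 3, 1 (Acvr2a) had an unadjusted p under 0.05, where 30.7% of all tested genes did. Bmpr2, the main BMP type II receptor of the vessel wall, lies 14.5 Mb from Mir26b and carries an 8-base site. It stood at 146, 141 and 154 CPM in the controls and 148, 135 and 139 CPM in the knockouts, with a log2 difference of -0.06 and a 95% interval of -0.20 to 0.08. Acvr2a was at 26.8 ± 2.22 and 22.5 ± 2.24 CPM (log2 difference -0.25, SE 0.10, edgeR adjusted p of 0.137). Without knockout replicate 3 edgeR called Acvr2a lower (log2 difference -0.33, adjusted p of 0.0293), as it did 11.4% of all tested genes. Acvr2b was at 3.45, 3.49 and 3.49 CPM in the controls and 3.97, 4.02 and 4.02 CPM in the knockouts. Its groups did not overlap and its replicates differed little, but the test, which takes spread from all genes, gave a log2 difference of 0.20 with an interval of -0.05 to 0.45.

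Of the 10 BMP ligands 9 were tested and none was called by edgeR or DESeq2; 1, Bmp6, had an unadjusted p under 0.05 (30.7% of all tested genes did), and 7 of the 9 had a log2 difference below 0 (50.6% of all tested genes did). The groups overlapped for all 9. Bmp6, known as an endothelial regulator of iron metabolism, stood at 97.2, 112 and 95.2 CPM in the controls and 71.6, 68.8 and 97.6 CPM in the knockouts (log2 difference -0.36, SE 0.15, edgeR adjusted p of 0.156). Bmp4 stood at 71.5, 78.6 and 67.5 CPM in the controls and 61.2, 60.4 and 76.7 CPM in the knockouts. In both genes knockout replicate 3 lay inside the control range and the other 2 knockouts below it.

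The same held for Bmp3, a ligand that opposes osteogenic BMPs, at 24.3, 28.6 and 26.1 CPM in the controls and 14.5, 13.5 and 26.1 CPM in the knockouts. Its log2 difference was -0.55 (SE 0.25, adjusted p of 0.198), and without knockout replicate 3 it was -0.91 with an adjusted p of 0.00111. In that fit Bmp6 and Bmp4 had differences of -0.53 and -0.26, with adjusted p of 0.00546 and 0.0430. Bmp2 was at 13.7 ± 1.06 and 11.7 ± 1.14 CPM and Bmp7 at 1.46 ± 0.335 and 1.13 ± 0.209 CPM, with edgeR adjusted p of 0.200 and 0.343.

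Of the 10 GDF ligands, all tested, 1 rose. Gdf15 (ENSMUSG00000038508, chromosome 8, 70629393 to 70632456), a cytokine of stressed cells and macrophages, stood at 2.29, 1.80 and 2.05 CPM in the controls and 6.47, 6.17 and 2.95 CPM in the knockouts. Knockout replicate 3 was above the controls but well below the other knockouts. A log2 difference of 1.34 (SE 0.31) was estimated, with an edgeR adjusted p of 0.0443, and limma-voom gave 0.0772.

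Gdf3, a member of the family known from macrophages and adipose tissue, had the largest log2 difference of the 45 tested genes and was not called by edgeR. It stood at 1.0, 0.653 and 0.439 CPM in the controls and 3.47, 5.59 and 1.15 CPM in the knockouts, a log2 difference of 2.28 (SE 0.60) with an adjusted p of 0.0583. DESeq2 called it with an adjusted p of 0.000678. Macrophage markers (Adgre1, Cd68, Csf1r, Lyz2, Fcgr1, Ctss, Cx3cr1 and Mrc1) had a summed TPM of 539 to 723 in controls and of 4158, 4600 and 1508 in the knockouts, and 8 of 8 were called higher. Their part in the levels of Gdf3, Gdf15, Tgfb1 and Ltbp2, for which knockout replicate 3 was also the lowest knockout, was not tested. The same pattern was seen in Acvrl1, Acvr1b, Tgfbr2, Gdf11, Inhbb and Bmp2k, which were also higher on average in the knockouts. For these genes too the part of the macrophage markers was not tested.

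Gdf10, also named BMP3b, was the most abundant GDF ligand, at 141 ± 22.6 and 165 ± 14.0 CPM (log2 difference 0.23, SE 0.13, edgeR adjusted p of 0.283). Gdf11 was at 3.04 ± 0.459 and 3.84 ± 0.375 CPM without overlap (adjusted p of 0.209), Gdf7 at 4.12 ± 0.259 and 3.46 ± 0.990 CPM and Gdf6 at 2.60 ± 0.580 and 2.97 ± 1.76 CPM. Gdf9, the oocyte factor, had a mean CPM under 1 and groups that did not overlap by a narrow margin, at 0.740 to 1.02 and 0.359 to 0.730 CPM (adjusted p of 0.260).

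With all libraries the activin and inhibin beta subunits held no call by edgeR or DESeq2 among the 3 tested. Of these 1, Inhbb, had an unadjusted p under 0.05, where 30.7% of all tested genes did. Inhba, whose dimer is activin A, stood at 126, 115 and 113 CPM in the controls and 138, 136 and 104 CPM in the knockouts. Its difference was 0.09 on counts (95% interval -0.19 to 0.37) and -0.02 on log2(TPM + 1), so it has no settled sign. Inhbb was at 6.07 ± 0.751 and 7.90 ± 1.18 CPM (log2 difference 0.38, SE 0.15, edgeR adjusted p of 0.149). Without knockout replicate 3 edgeR called Inhba and Inhbb higher, as it did 17.2% of all tested genes. Their log2 differences were then 0.21 and 0.50, with adjusted p of 0.0453 and 0.0323. Inhbe, known from liver, was at 1.66 ± 0.147 and 1.69 ± 0.122 CPM.

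The rule also took in 3 genes whose products are neither ligands, receptors nor binding proteins. Tgfb1i1 (ENSMUSG00000030782, chromosome 7, 128246812 to 128255699), a focal adhesion adaptor of smooth muscle, stood at 233, 242 and 259 CPM in the controls and 182, 175 and 202 CPM in the knockouts, without overlap (log2 difference -0.39, SE 0.08, edgeR adjusted p of 0.0335). Smooth muscle markers had a summed TPM of 25499, 25079 and 29190 in the controls and 18829, 17382 and 20185 in the knockouts, with 4 of 7 called lower. Tgfb1i1 ranked within the knockouts as these markers did, with replicate 2 lowest and replicate 3 highest, and Ltbp1 and Bmpr1b were also lowest in replicate 2; the markers' part in these values was not tested. Bmp1, the procollagen C-proteinase, was at 217 ± 12.8 and 220 ± 5.87 CPM (log2 difference 0.02, 95% interval -0.12 to 0.17). Bmp2k, a kinase named for its induction by BMP2, was at 16.3, 18.5 and 17.2 CPM in the controls and 24.9, 25.9 and 17.1 CPM in the knockouts (edgeR adjusted p of 0.159).

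Of the 47 genes 10 were low: 2 were left out by the low-count filter and 8 had little signal. Bmp10, a ligand of cardiac origin, had 0 counts in 5 libraries and 1.01 in knockout replicate 3, and a count of 0 allows up to 0.0576 CPM in the library with the highest limit. Inhbc had 1.01 to 3.21 estimated counts. Neither passed the low-count filter. The other 8 were tested but had a mean under 1 CPM: Bmp5, Bmp8a, Bmp8b, Bmp15, Gdf1, Gdf2, Gdf5 and Gdf9. None of the 8 was called by edgeR, and none had an unadjusted p under 0.05.

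Intervals for these low genes were too wide to read a direction in most. Gdf2, which encodes BMP9, had counts of 3.06, 35.1 and 4.99 in the controls and 14.1, 2.14 and 15.2 in the knockouts, with a 95% interval of -2.90 to 1.93 on the log2 scale. Control replicate 2 held the high value, and without it the difference was 1.33, the opposite sign. Gdf5 stood at 0.397 to 0.578 CPM in the controls and at 0.109, 0.101 and 0.785 CPM in the knockouts, so knockout replicate 3 was the highest of all libraries; without it edgeR called Gdf5 lower (log2 difference -2.29, adjusted p of 0.00663). Gdf1 shares exons with Cers1, and Bmp8a and Bmp8b are close copies 180.5 kb apart, so the division of reads is uncertain for these 3.

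Within the knockout group, replicate 3 often lay nearer the controls. For 35 of the 45 tested genes (77.8%) knockout replicates 1 and 2 both lay outside the control range on 1 side, against 58.6% of all tested genes. In 13 of these 35 (37.1%, against 28.6% of such genes over the whole table), including Tgfb3, Ltbp2, Ltbp4, Bmp3, Bmp4, Bmp6 and Bmp2k, knockout replicate 3 lay inside the control range. In 12 (34.3%, against 42.9%) it lay between the controls and the other knockouts, as for Tgfb1, Tgfbr2, Gdf15, Gdf3, Acvrl1, Acvr1b, Bmpr1a, Bmpr1b, Ltbp1 and Tgfb1i1. In the remaining 10 (28.6%, against 28.5%) it lay elsewhere. The position of this library was thus shared with genes outside the family, and the differences between these shares were not tested. Among the remaining 10, Tgfb2, Tgfbr1 and Acvr1 were lowest of all libraries in knockout replicate 3, with the other knockouts also below the controls. Inhba and Gdf6 were lowest in it too, but with the other knockouts above the controls. Bmp5, Gdf5 and Gdf7 were highest in it, with the other knockouts below the controls.

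**Figure D4:**
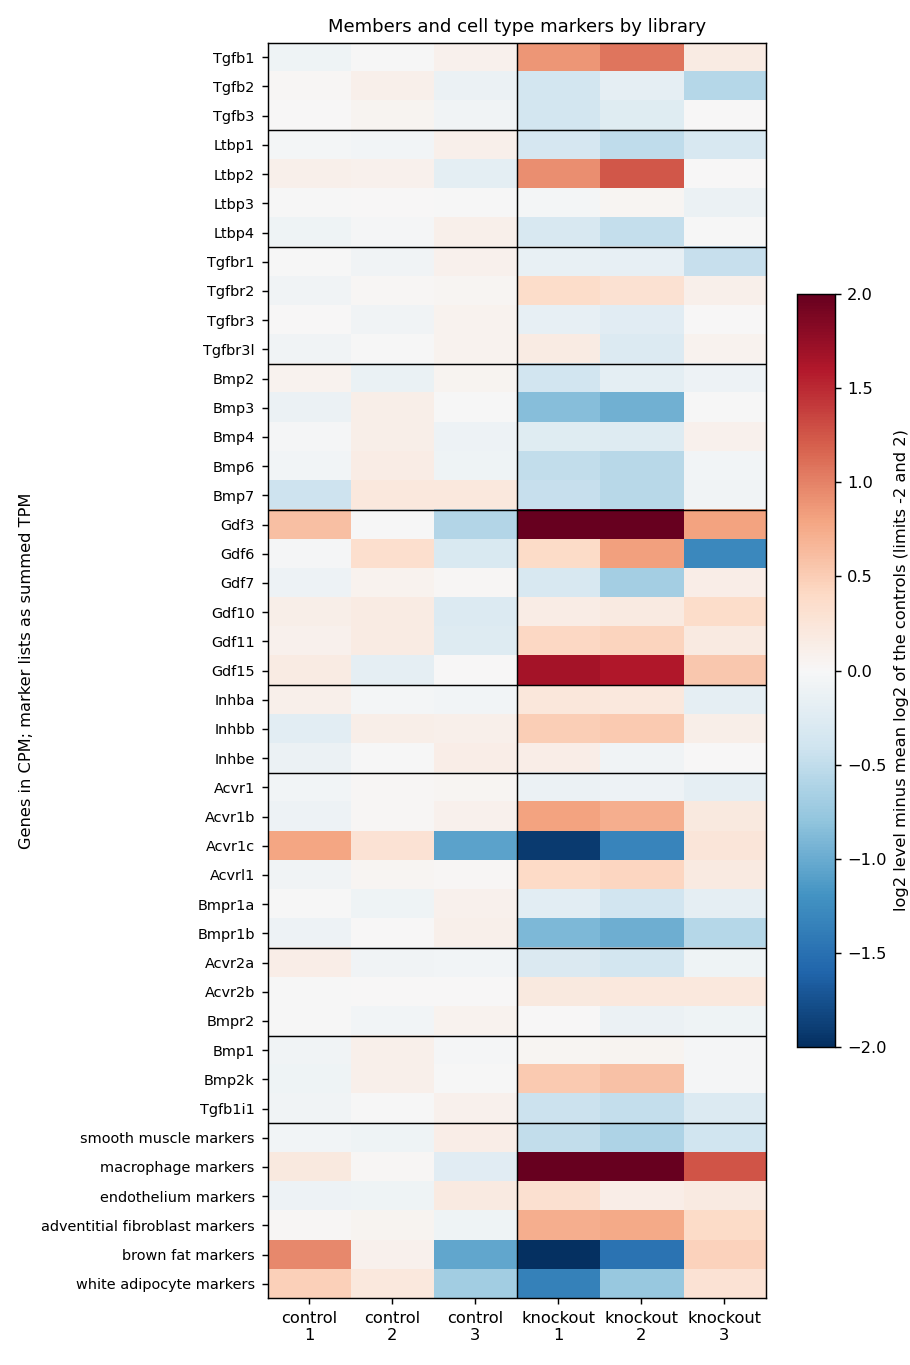
Log2 level of each library minus the mean log2 level of the controls, in CPM for 37 tested genes (mean CPM 1 or more) and as summed TPM for 6 marker lists; colours are limited at -2 and 2. Knockout replicates 1 and 2 look alike in most rows, and knockout replicate 3 is paler, as it is for the macrophage markers.

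Genes of the pathway outside the rule were read from a list of 86, of which 81 were tested. By edgeR 7 rose (8.64%) and 5 fell (6.17%), the background being the 6.50% and 3.84% given above. With any library other than knockout replicate 3 left out, 0 rose and 0 fell. Over all tested genes those fits called 0 to 52 higher and 0 to 22 lower. Limma-voom called 3 of the list in each direction, and of all 17392 tested genes 559 higher and 514 lower. The median log2 difference of the 81 was -0.02. Adventitial fibroblast markers had a summed TPM of 2885, 2924 and 2668 in the controls and 4696, 4794 and 3668 in the knockouts, with 4 of 7 called higher; the part of these, the macrophage and the smooth muscle markers in the pathway calls was not tested.

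The extracellular antagonists and modulators, which act on BMPs or activins, held the largest rise, and their calls went both ways, with 2 of 19 higher and 2 lower. Grem1, which encodes gremlin and binds BMP2 and BMP4, stood at 1.12, 1.15 and 1.04 CPM in the controls and 5.01, 6.46 and 3.04 CPM in the knockouts, 4.37-fold higher with an edgeR adjusted p of 0.0207. Bmper, a secreted modulator of BMP activity, was 2.44-fold higher, at 6.25 ± 1.28 and 15.2 ± 3.13 CPM. Sost, which encodes sclerostin and also binds Wnt co-receptors, fell from 634 ± 50.9 to 339 ± 109 CPM (adjusted p of 0.0485), and Fstl3, an activin-binding protein, fell from 112 ± 5.24 to 74.1 ± 4.59 CPM (adjusted p of 0.0130).

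Of 17 genes of latency and activation 2 rose (11.8%, against 6.50% of all tested genes) and 1 fell (5.88%, against 3.84%). Thbs1, whose product thrombospondin can activate latent TGF-beta, stood at 106, 86.9 and 103 CPM in the controls and 323, 456 and 153 CPM in the knockouts, 3.15-fold higher. Nrros, which holds latent TGF-beta on myeloid cells, was 2.45-fold higher, and the integrin gene Itgb3 1.46-fold lower. Their edgeR adjusted p were 0.0416, 0.0351 and 0.0328. Fbn1, the fibrillin to which LTBPs bind, was at 634 ± 17.8 and 610 ± 47.7 CPM and was not called.

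None of the 8 SMAD genes was called by edgeR, and none had an unadjusted p under 0.05. Smad3 was at 46.7 ± 2.16 and 55.8 ± 8.19 CPM, with an adjusted p of 0.169, and the inhibitory Smad7 at 42.1 ± 2.44 and 37.6 ± 3.95 CPM, with 0.262. The pseudoreceptor gene Bambi fell 1.40-fold (edgeR adjusted p of 0.0478). Of 12 genes of turnover and repression 1 rose (8.33%, against 6.50% of all tested genes), the corepressor gene Tgif1, by 1.94-fold (0.0356).

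Of 17 target genes 2 rose (11.8%, against 6.50% of all tested genes) and 1 fell (5.88%, against 3.84%) by edgeR. Tgfbi rose 1.26-fold and the cell cycle inhibitor gene Cdkn1a 1.52-fold, and Postn, which encodes periostin, fell from 1997 ± 29.9 to 1343 ± 25.6 CPM (adjusted p of 0.0130). Of the 17, 7 had an unadjusted p under 0.05 (41.2%, against 30.7% of all tested genes). Among those not called, the BMP and Notch target gene Hey1 had the lowest p, at 4.27 ± 0.532 and 6.36 ± 0.662 CPM without overlap (log2 difference 0.57, adjusted p of 0.0502 by edgeR). Ccn1 was at 606 ± 162 and 968 ± 188 CPM (log2 difference 0.68, adjusted p of 0.0971) and Id4 at 41.3 ± 3.57 and 31.0 ± 6.71 CPM, the latter without overlap (-0.41, adjusted p of 0.133). Smaller differences were found for 3 other readouts: Ccn2 was at 1665 ± 134 and 1542 ± 214 CPM, and Id1 and Id3 at 40.9 ± 8.28 and 37.5 ± 10.8, and 145 ± 17.7 and 160 ± 17.8 CPM. The edgeR adjusted p of these 3 were between 0.433 and 0.746.

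**Figure D5:**
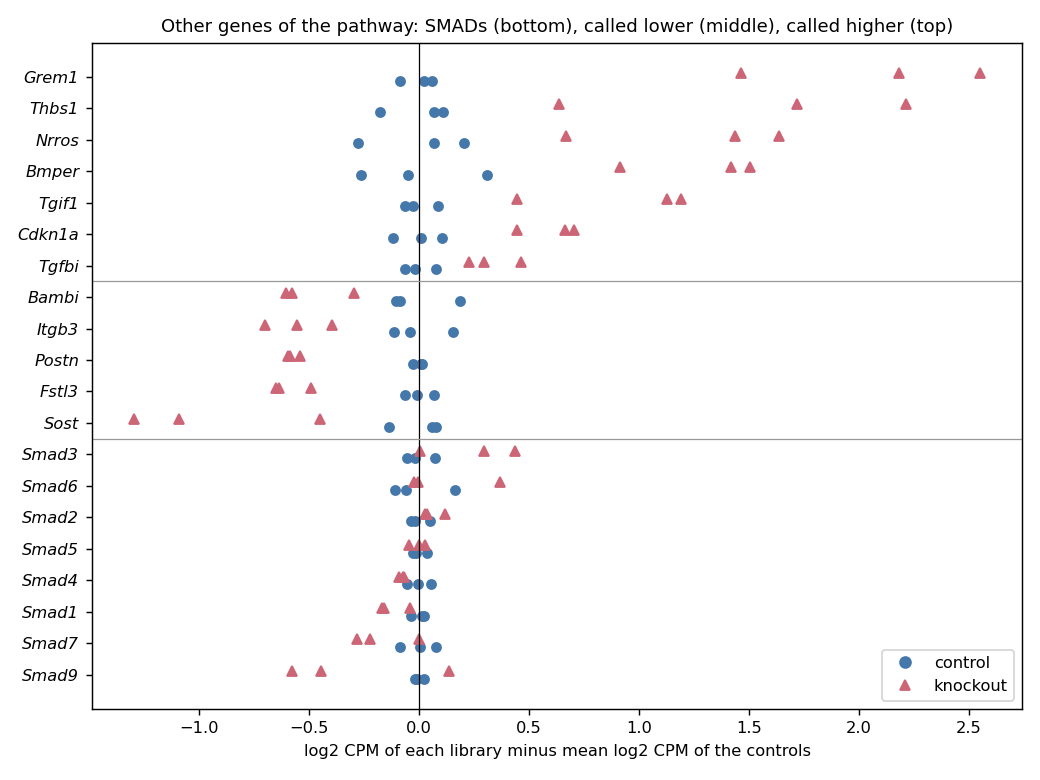
Log2 CPM of each library minus the mean log2 CPM of the controls for the 8 SMAD genes and the 12 called genes of the pathway list; circles are controls and triangles knockouts. The groups do not overlap for the 12 called genes, a gap the choice by p-value makes likely, and overlap for 6 of the 8 SMAD genes.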

How the data were processed

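RNA was sequenced in 3 Apoe-/- control and 3 Apoe-/- MiR26b-/- libraries, grouped by title. The submitters' processing notes name kallisto 0.46.2, FastQC 0.11.8 and Trim Galore 0.6.5, and the build GRCm38; which annotation was used is not given in the sources used here. The authors deposited estimated counts per gene, which were rounded here to whole numbers; their low values step by a constant per library (0.900 to 1.07) whose origin is not given in the sources used here, and no correction was made for it beyond TMM. Their deposited TPM table, whose columns sum to between 955527 and 1034723, was used as a signal per length. The mean RNA integrity number per the labels was 7.0.

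Genes passing filterByExpr (minimum count 10) were tested after TMM scaling in edgeR 4.0.16 in R 4.3.3; standard errors are the log2 difference divided by the root of F. The fit was also run on simulated counts with known changes. The simulation held no outlying library, so it cannot show how the fit behaves with knockout replicate 3. Alternatives were other scaling, filters (none, mean count of at least 50), DESeq2 1.42.0, limma 3.58.1 (voom, or log2 TPM with a pseudocount of 1 or 0.1), a block on replicate number and omission of each library. No libraries of a group agreed within sampling noise (mean chi-square per gene 12.21 to 110.66). Exons of 18 of the 47 genes overlap another annotated gene, and the strand setting is not given, so such reads cannot be separated. For 9 of the 18 a protein-coding gene is overlapped: Ltbp3, Tgfbr3l, Bmp4, Bmp6, Bmp8b, Gdf1, Gdf5, Acvr2a and Bmp2k.

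The genes, their roles and the lists were chosen with earlier results of these data known. Genes were named where called, where among the 2 of highest mean TPM in a role, or where uncalled with groups apart and a log2 difference of at least 0.5; genes too low to judge, the called pathway genes (at most 12) and the SMADs were also named. Other genes of the rule were added to account for all, and Fbn1, Hey1, Ccn1, Ccn2, Id1, Id3 and Id4 were chosen after their values were seen. A pathway gene and a site sequence are not reported here.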

Additional observations from a re-analysis of the deposited data

How the results depend on the processing

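The 5 calls kept their direction under all 16 alternatives run for each. Bmpr1b, Tgfb1i1 and Ltbp1 kept their calls under the other scalings, filters, DESeq2 and limma-voom, but Ltbp1 lost it in limma on TPM. DESeq2 called 7 higher and 5 lower, limma-voom 0 higher, limma on log2(TPM + 1) 0 higher and on log2(TPM + 0.1) 1 higher. Over all 17392 tested genes the main fit called 1131 higher and 667 lower. The 3 limma settings called 559, 461 and 641 higher, and the replicate block 1295 higher and 700 lower. DESeq2 called 2081 higher and 1310 lower among 16727 genes. With the replicate block 1 gene (Gdf3) was higher and 4 were lower, Tgfb2 among them, while Gdf15 and Acvrl1 had adjusted p of 0.0624 and 0.0742; the libraries share only a number, since deviations of same-number libraries correlated at -0.09, 0.23 and 0.08. With libraries left out in turn the calls ranged from 0 to 10 higher and 0 to 11 lower. Over all tested genes they ranged from 0 to 3051 higher and 0 to 2028 lower. Of the pathway list, 3, 3 and 4 genes were higher and 3, 3 and 3 lower with limma-voom and the TPM scales. In that list 13 were lower with DESeq2 and 3 with library size alone, and with libraries left out 0 to 10 were higher and 0 to 16 lower. Over all tested genes the limma settings called 514, 251 and 301 lower, and library size alone 447. With the 8-base site alone 5 genes held a site.

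Signs turned in 11 uncalled genes. Ltbp3 was 0.01 with library size alone and 0.09 on both TPM scales, Tgfbr3l 0.04 with library size alone, Inhba -0.02 on both TPM scales and Gdf6 -0.02 with limma-voom. With libraries left out the ranges were -0.07 to 0.00 for Ltbp3, -0.10 to 0.11 for Tgfbr3l, -0.49 to 0.06 for Bmp5, -0.22 to 0.82 for Bmp8a, -0.02 to 0.45 for Bmp15, -0.62 to 0.85 for Gdf1, -0.96 to 1.33 for Gdf2, -0.23 to 0.60 for Gdf6, -0.03 to 0.10 for Inhbe and -0.01 to 0.07 for Bmp1. Bmp5, Bmp8a, Bmp15, Gdf1 and Gdf2 had a mean under 1 CPM, and the others of the 11 had a mean above it. The cause was not tested.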
